A study of Mus musculus with 18 samples.

Results

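The genes described here are 50 genes of the cell cycle and of DNA replication, chosen by name for their roles in S phase, mitosis, the D cyclin step and its inhibition. A member was kept where at least 1 of its probes had a detection p under 0.05 on 3 or more of the 18 arrays. By that rule 45 of the 50 were kept, with 86 probes, out of 16446 genes and 22987 probes in all. CCNB2, BUB1, CENPE and MYCN were detected on 0 arrays and CDK6 on 1 array, so these 5 have no values below. For each of the other 45 the probe with the largest mean stood for the gene.

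The samples are mouse cultures collected on day 3 in serum-free medium, 3 replicates in each of 6 groups. Embryonic stem (ES) cells carrying a knock-in of green fluorescent protein under the τ promoter were plated on PA6 stroma, a mouse bone marrow line, which gives the co-cultures, labelled ES/PA6. PA6 cells cultured by themselves are the mono-cultures. Either culture type was left without growth factors (-GFs), or was given recombinant FGF2 at 20 ng/ml or recombinant BMP4 at 10 ng/ml. The study asked which signals from ES cells and stroma guide endothelial differentiation, and the mono-cultures show the stromal response by itself. The ES cells and the stroma rest on 1 line each, with PA6 in both culture types. A co-culture array measured the RNA of ES-derived cells and stroma together. In such bulk samples fewer cells of a type and less RNA per cell cannot be told apart.

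A dividing cell passes from growth into DNA synthesis (S phase) and then into mitosis. D cyclins with CDK4 or CDK6 phosphorylate the retinoblastoma protein, which frees E2F factors to switch on replication genes, while the INK4 and CIP/KIP inhibitors block these kinases. Mitotic genes are switched on later, through CHR and CCAAT elements in their promoters, by factors such as FOXM1 and B-MYB. ES cells are known for a short growth phase and weak dependence on D cyclins, whereas confluent stromal cells divide little without a mitogen.

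All levels below are log2 intensities after background correction and quantile normalization, and a difference of 1 is a 2-fold change. A member is said to have risen or fallen where the Benjamini-Hochberg adjusted p of the limma fit over all 16446 genes was under 0.1. It is said to be called where its difference also exceeded 1. The ES marker POU5F1 stood at 13.19 in ES/PA6 and at 6.86 in PA6 without growth factors, detected on 3 of 3 arrays in both. NANOG, SOX2, ZFP42, ESRRB, UTF1 and TDGF1 were detected on 0 of the 3 mono-culture arrays without growth factors. The summed level of 8 stromal markers was 15.63 to 15.87 in ES/PA6 and 16.55 to 16.68 in PA6 without growth factors. DCN was the brightest of them and weighs most in the sum, with a difference of -0.72 between the culture types. Taken singly the markers differed by -0.18 (THY1) to -2.04 (POSTN), with COL1A1 at -1.71 and PDGFRB at -1.58.

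The members parted the culture types strongly and moved little with either factor in the co-cultures. In the PA6 mono-cultures they moved with FGF2 and, less stably, with BMP4. Without growth factors, 37 of the 45 were called between ES/PA6 and PA6, beside 39% of all genes. Of these, 34 were higher in the co-cultures, beside 19.4% of all genes, and 3 were lower, beside 19.5%. The median difference of the members was 2.90, against -0.11 over all genes. The groups of genes that take part in S phase and mitosis lay highest in the co-cultures, as the plot of the 2 culture types by role shows. Among the D cyclin genes CCND1 was called higher there and the other 3 differed by less than 2-fold, and among the inhibitors CDKN1C was called higher and CDKN1B and CDKN2A lower.

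**Figure D1:**
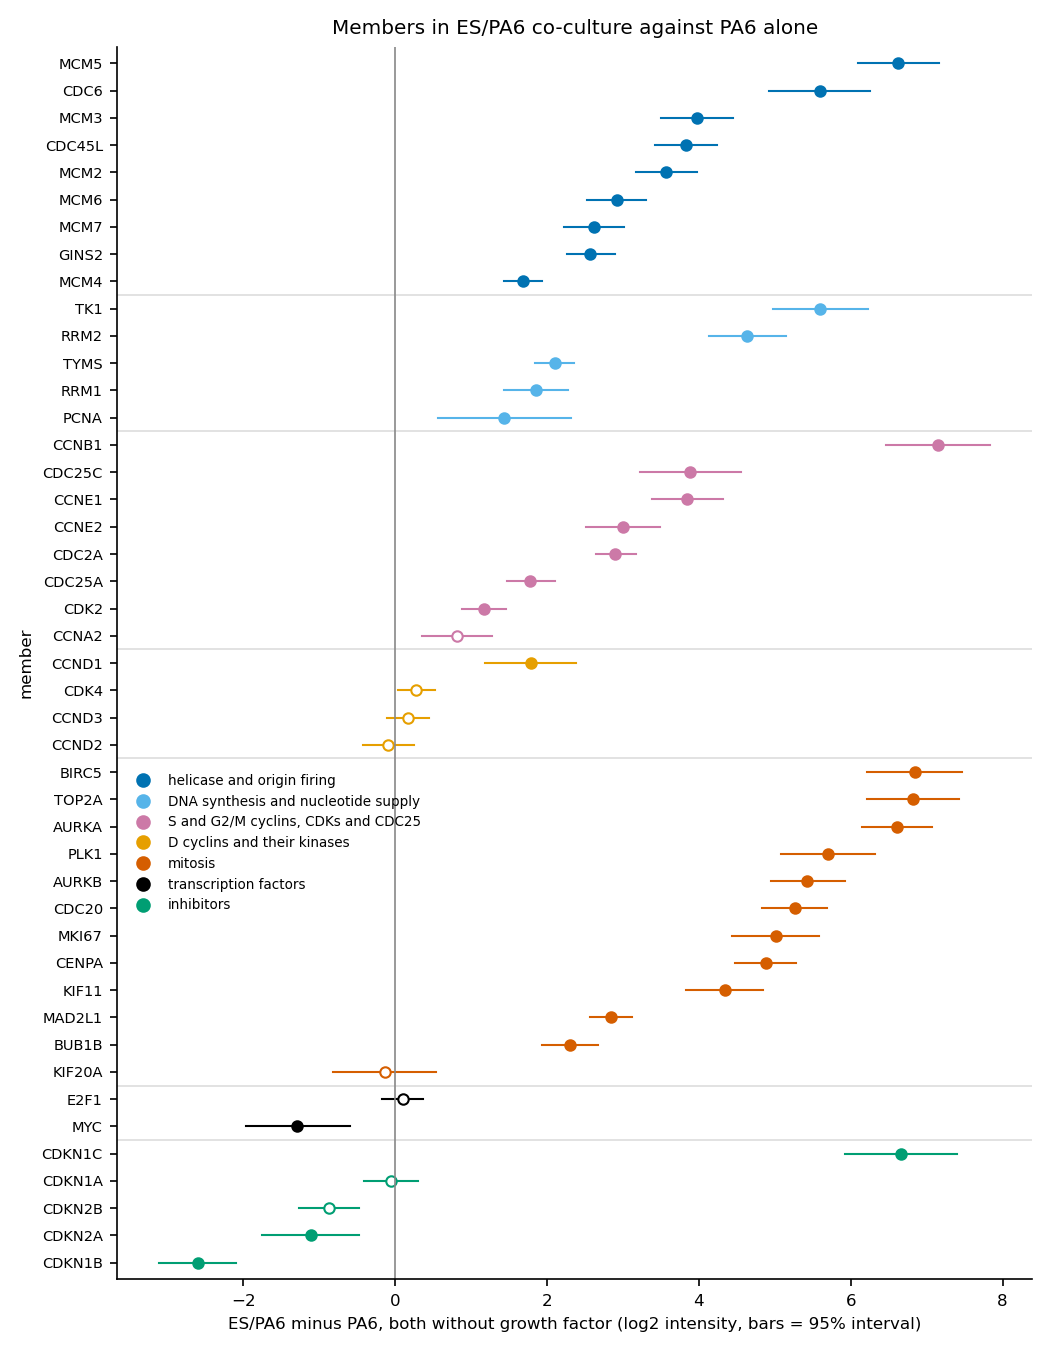
Difference of each member between ES/PA6 and PA6 cultures, both without growth factors (3 arrays each), in log2 intensity with 95% intervals of the limma fit; filled points were called and open points were not. All 9 helicase and origin genes and 11 of 12 mitotic genes lie to the right of 0, whereas CDKN1B, CDKN2A, CDKN2B and MYC lie to the left.

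In the ES/PA6 co-cultures 0 of the 45 members were called with FGF2 against -GFs, beside 3.34% of all genes. With BMP4 against -GFs it was 0 beside 0.76%, and between FGF2 and BMP4 it was 0 beside 2.85%. By the adjusted p alone 2 members passed with FGF2 (9.05% of all genes), 0 with BMP4 (1.7%) and 1 between the factors (7.48%). At an unadjusted p under 0.05 the limma fit gave 3, 1 and 2 members in these comparisons. The differences ran from -0.54 to 0.58 with FGF2 and from -0.58 to 0.39 with BMP4, with medians of 0.03 and 0.01.

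In the PA6 mono-cultures FGF2 raised 16 members and lowered 4, among them 8 called members, all higher. The called share of all genes was 5.27%, with 2.71% higher and 2.56% lower. By the adjusted p alone 18.7% of all genes passed, 9.19% higher and 9.55% lower. BMP4 raised 8 members and lowered 0, of which 3 were called, beside 1.41% of all genes (0.839% higher and 0.572% lower). By the adjusted p alone 3.84% of all genes passed with BMP4, 2% higher and 1.84% lower. Between FGF2 and BMP4, 7 members were called, 5 higher with FGF2 and 2 lower, beside 5.82% of all genes (2.88% higher and 2.94% lower). A further 10 of the 17 that passed the adjusted p there, beside 20.3% of all genes, differed by less than 2-fold. Both comparisons with -GFs share the same 3 control arrays.

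**Figure D2:**
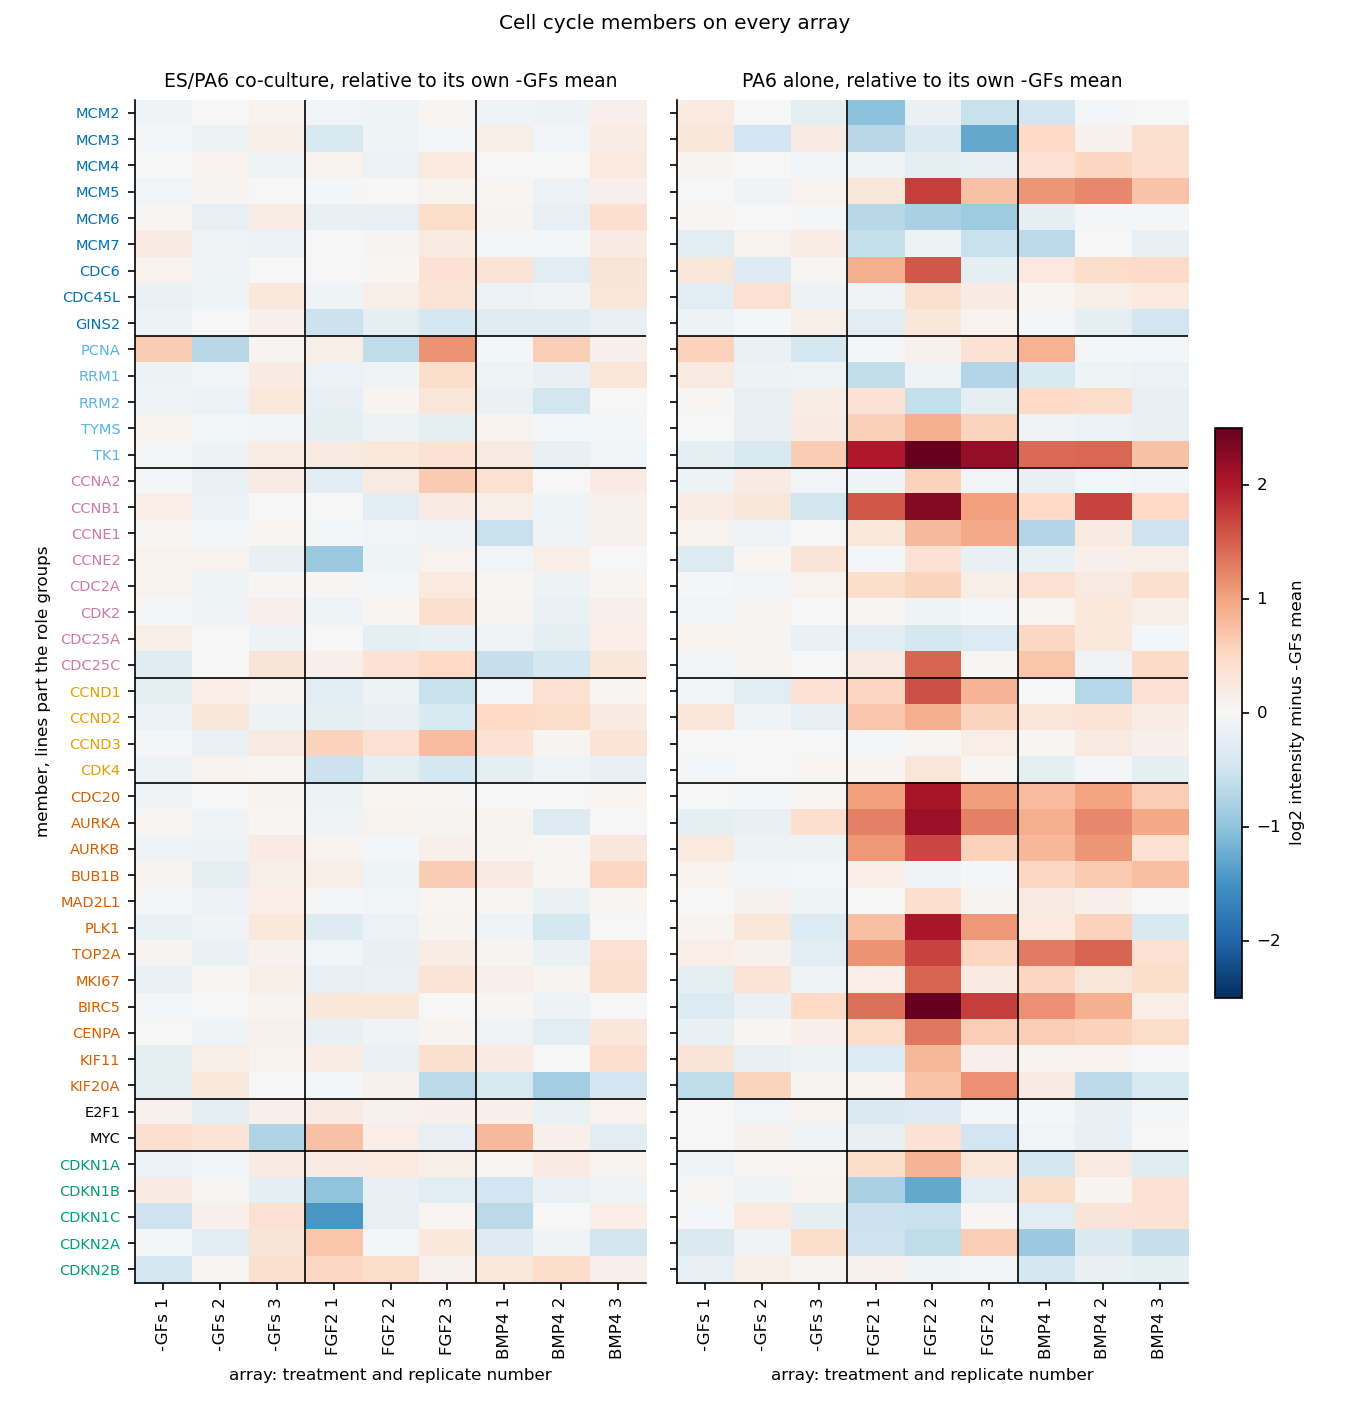
Each of the 45 members (rows, grouped by role) on each array (columns), as log2 intensity minus the gene's own -GFs mean in the same culture type; the colour scale stops at -2.5 and 2.5. The left panel (ES/PA6) is mostly pale, and in the right panel (PA6) TK1, CCNB1 and 7 of the 12 mitotic genes are higher on the FGF2 arrays, with TK1 and CCNB1 highest on replicate 2, while BUB1B and MAD2L1 stay pale there.

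Promoters of mitotic and helicase members are shown next, since with FGF2 in PA6 7 mitotic genes rose while 3 of the helicase genes fell and 1 rose. RefSeq promoters of assembly GRCm38.p6, from 250 bases before to 50 bases after the start, were found for 34 of the 45 members, 4 of them with 2 entries. The motifs searched, on both strands, were E2F as TTTCCCGC, TTTGGCGC or TTTCGCGC, the CHR element as TTTGAA, and the CCAAT box as CCAAT. A CHR and a CCAAT match together were held by 8 of the 10 mitotic promoters, by 2 of the 7 helicase and origin promoters and by 6.95% of the 32851 promoters in the table. An E2F match was held by 0 of the 10 mitotic promoters, by 5 of the 7 helicase and origin promoters (MCM3, MCM5, MCM6, MCM7 and CDC6) and by 1.84% of all promoters. Of the 5 DNA synthesis and nucleotide supply promoters 0 held E2F and 0 held CHR with CCAAT. Of the 5 S and G2/M promoters 3 held E2F (CDC2A, CDK2 and CDC25A) and 1 held CHR with CCAAT (CDC2A). A CHR match, with or without CCAAT, was held by 17.9% and a CCAAT match by 37.4% of all promoters.

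Printed 5′ to 3′ on the gene's own strand, with every match in capitals, are the promoters of CDC20, AURKA and PLK1 (higher with FGF2, with both CHR and CCAAT), of CCNB1 (higher with FGF2, with CCAAT and no CHR) and of MCM3 and MCM6 (lower with FGF2, with E2F and CCAAT).
CDC20 (chr4:118437294-118437593, minus strand): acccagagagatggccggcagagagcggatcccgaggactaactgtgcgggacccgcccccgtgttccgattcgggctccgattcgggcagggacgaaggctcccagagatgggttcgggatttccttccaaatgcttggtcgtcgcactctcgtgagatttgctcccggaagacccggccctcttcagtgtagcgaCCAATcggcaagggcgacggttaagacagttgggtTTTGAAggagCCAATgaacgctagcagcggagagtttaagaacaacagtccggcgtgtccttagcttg
AURKA (chr2:172370521-172370820, minus strand): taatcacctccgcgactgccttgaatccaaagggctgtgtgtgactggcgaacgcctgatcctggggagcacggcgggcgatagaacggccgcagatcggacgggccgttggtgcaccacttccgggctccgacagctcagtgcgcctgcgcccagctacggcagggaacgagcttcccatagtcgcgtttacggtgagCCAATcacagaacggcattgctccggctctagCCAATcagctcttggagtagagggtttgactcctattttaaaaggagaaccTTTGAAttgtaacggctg
PLK1 (chr7:122159185-122159484, plus strand): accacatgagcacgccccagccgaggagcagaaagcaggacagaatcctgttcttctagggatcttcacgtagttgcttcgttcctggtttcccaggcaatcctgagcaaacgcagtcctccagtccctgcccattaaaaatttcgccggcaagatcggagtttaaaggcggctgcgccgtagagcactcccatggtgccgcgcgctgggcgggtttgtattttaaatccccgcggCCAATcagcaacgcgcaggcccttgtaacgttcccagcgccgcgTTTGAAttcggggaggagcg
CCNB1 (chr13:100786437-100786736, minus strand): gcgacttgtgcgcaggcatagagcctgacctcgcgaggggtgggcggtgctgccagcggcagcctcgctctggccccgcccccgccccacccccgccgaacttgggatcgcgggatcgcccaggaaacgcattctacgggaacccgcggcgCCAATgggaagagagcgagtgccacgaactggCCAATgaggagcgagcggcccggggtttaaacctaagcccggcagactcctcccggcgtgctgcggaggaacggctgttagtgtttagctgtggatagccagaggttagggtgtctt
MCM3 (chr1:20820263-20820562, minus strand): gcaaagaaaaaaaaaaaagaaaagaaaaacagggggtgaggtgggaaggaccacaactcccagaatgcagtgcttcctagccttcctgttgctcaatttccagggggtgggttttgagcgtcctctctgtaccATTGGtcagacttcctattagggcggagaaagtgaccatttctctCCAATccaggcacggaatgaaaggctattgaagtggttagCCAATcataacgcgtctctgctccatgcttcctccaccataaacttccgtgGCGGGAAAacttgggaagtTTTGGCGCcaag
MCM6 (chr1:128359656-128359955, minus strand): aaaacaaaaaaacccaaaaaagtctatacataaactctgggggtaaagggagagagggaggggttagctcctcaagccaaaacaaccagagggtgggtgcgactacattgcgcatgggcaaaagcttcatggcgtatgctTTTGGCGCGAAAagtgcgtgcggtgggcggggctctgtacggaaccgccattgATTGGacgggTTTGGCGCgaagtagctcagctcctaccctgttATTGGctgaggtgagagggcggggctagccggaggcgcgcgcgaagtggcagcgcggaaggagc
CDC20 held CHR at -18 to -13, between CCAAT boxes at -53 to -49 and -8 to -4, counted from the start. In AURKA and PLK1 the CHR lay after the start, at 33 to 38 and 31 to 36. In MCM6 the E2F matches at -110 to -103 and -106 to -99 overlap on opposite strands, and another lay at -47 to -40. Of the 7 members with an entry among the 8 called with FGF2 in PA6, CDC20, AURKA, PLK1 and TOP2A held both CHR and CCAAT, and 0 held E2F. The matches did not follow the direction of change in every member. MCM2 fell and held CHR and CCAAT with no E2F, and MCM5 rose and held 2 E2F matches. TK1 and BIRC5 were called and held none of the motifs, and BUB1B, MKI67 and KIF11 held both CHR and CCAAT and did not pass with FGF2. Matches are letters in this window, and binding was not measured. Only the exact letters given were searched, so a promoter without a match may still hold a variant of the element.

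The helicase and origin genes open S phase: MCM2 to MCM7 form the ring that unwinds DNA, CDC6 loads it, and CDC45L (now Cdc45) and GINS2 switch it on. All 9 were called higher in the co-cultures, with a median difference of 3.57. MCM5 read 14.05, 14.19 and 14.12 in ES/PA6 against 7.50, 7.40 and 7.58 in PA6 without growth factors, a difference of 6.62 ± 0.251 (SE, adjusted p = 1.88e-12). CDC6 was detected on 0 of the 3 mono-culture arrays, at 5.49 against 11.08, which is at least 27.5-fold higher in the co-cultures (adjusted p = 2.4e-10). MCM4 differed least, by 1.68 (adjusted p = 3.47e-09). The difference of MCM6 depends on the probe: 3 of its probes were higher in the co-cultures, and 1 was lower, at 7.64 against 9.44.

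With FGF2 in PA6 the 6 subunits of the MCM ring did not move together. MCM6 read 9.28, 9.21 and 9.18 without growth factors and 8.53, 8.41 and 8.34 with FGF2. All FGF2 arrays lay below all controls, and the level fell by 0.80 on the log2 scale (SE 0.182, adjusted p = 0.00701). MCM3 read 6.88, 6.11 and 6.79 without growth factors and 5.90, 6.24 and 5.32 with FGF2, where it was detected on 1 of 3 arrays. Its groups overlapped, and the difference was -0.77 ± 0.222 (adjusted p = 0.0282). MCM2 fell by 0.58 (adjusted p = 0.0527), with overlap. MCM5 moved the other way, from 7.50, 7.40 and 7.58 to 7.77, 9.23 and 8.22, a rise of 0.91 ± 0.251 (adjusted p = 0.022) with all FGF2 arrays above the controls. MCM4 and MCM7 did not pass (adjusted p = 0.423 and 0.148). CDC6 was detected on 2 of 3 FGF2 arrays, at 6.40, 7.04 and 5.25, against 0 of 3 controls at 5.78, 5.16 and 5.52, with overlap (0.74, adjusted p = 0.143). CDC45L and GINS2 differed by 0.18 and 0.04 with FGF2 (adjusted p = 0.653 and 0.93).

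With BMP4 in PA6 the same ring gave 2 rises and 0 falls, and CDC6, CDC45L and GINS2 did not pass (0.39, 0.14 and -0.24). MCM5 read 8.59, 8.69 and 8.20, a rise of 1.0 ± 0.251 (adjusted p = 0.048) just short of the fold threshold, and 6 alternatives took its adjusted p past 0.1, to at most 0.187. MCM4 rose by 0.44 (adjusted p = 0.0641), from 12.35, 12.29 and 12.21 to 12.65, 12.82 and 12.71. Between the factors MCM3 was called 2.16-fold lower with FGF2 (-1.11 ± 0.222, adjusted p = 0.00246), with no overlap. MCM6 (-0.68, adjusted p = 0.0176) and MCM4 (-0.61, adjusted p = 0.00186) were also lower with FGF2 than with BMP4. MCM5 was at nearly the same level with both factors, with a difference of -0.09 and a 95% interval from -0.62 to 0.45. Without PA6 FGF2 replicate 2, the highest array, that difference was -0.50 (adjusted p = 0.0653).

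The enzymes of DNA synthesis and nucleotide supply are PCNA, the sliding clamp, the ribonucleotide reductase subunits RRM1 and RRM2, thymidylate synthase TYMS and thymidine kinase TK1. All 5 were called higher in the co-cultures, from PCNA at 1.43 ± 0.412 (adjusted p = 0.00587) to TK1 at 5.60 ± 0.298 (adjusted p = 1.16e-10). TK1, which salvages thymidine and peaks with DNA synthesis, had the largest fitted difference with FGF2 in PA6, from a control level near background. It read 5.56, 5.42 and 6.44 without growth factors, 7.80, 9.0 and 8.0 with FGF2 and 7.23, 7.24 and 6.53 with BMP4. It was detected on 1 of the 3 control arrays and on all arrays with either factor, and neither factor's arrays overlapped the controls. The rise was 2.46 ± 0.298 with FGF2 (5.51-fold, adjusted p = 2.89e-05) and 1.20 ± 0.298 with BMP4 (2.29-fold, adjusted p = 0.0455), and FGF2 exceeded BMP4 by 1.27 (adjusted p = 0.00791). The other kept probes of TK1 were dimmer and gave 0.24 and 0.75 with FGF2 and -0.19 and -0.32 with BMP4. Between the culture types without growth factors they gave 0.77 and 2.22. With the mean of its probes TK1 stayed called with FGF2, but not with BMP4 (0.23, adjusted p = 0.8).

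TYMS, which makes thymidylate, rose with FGF2 from 10.64, 10.43 and 10.83 to 11.23, 11.54 and 11.19. With BMP4 it read 10.55, 10.49 and 10.43. The FGF2 arrays lay above all the others, with a rise of 0.69 ± 0.122 over -GFs (adjusted p = 0.00101) and of 0.83 over BMP4 (adjusted p = 0.000163). PCNA, RRM1 and RRM2 passed in none of the 3 PA6 comparisons. Their differences from -GFs lay between -0.49, of RRM1 with FGF2 (adjusted p = 0.123), and 0.26, of PCNA with BMP4 (adjusted p = 0.918). PCNA was the most scattered of these, at 7.31, 6.58 and 6.32 without growth factors.

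The S and G2/M group holds the cyclins that carry the cell through S phase and into mitosis, their kinases and the CDC25 phosphatases that activate them. All 8 kept members passed between the culture types and 7 were called, from CDK2 at 1.17 to CCNB1 at 7.15. CCNB1, the cyclin of mitotic entry, read 12.83, 12.51 and 12.65 in the co-cultures. In the mono-cultures it was detected on 0 of 3 arrays, at 5.69, 5.79 and 5.05. It was at least 82.4-fold higher in the co-cultures (adjusted p = 1.6e-11). CCNA2 was the one not called, at 0.82 (adjusted p = 0.00305), and its probe was detected on 4 of the 18 arrays.

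CCNB1 rose in PA6 with FGF2 to 7.07, 7.80 and 6.53, all detected, which is at least 1.78-fold (1.62 ± 0.324, adjusted p = 0.00252). With BMP4 it read 6.00, 7.20 and 6.00 and was detected on 1 of 3 arrays (0.89, adjusted p = 0.213). Its other probe gave 0.56 with FGF2. CDC2A (now Cdk1), the kinase that CCNB1 activates, rose with FGF2 by 0.38 (adjusted p = 0.0549), from 9.60, 9.56 and 9.70 to 10.06, 10.18 and 9.76. CCNE1, the cyclin that opens S phase with CDK2, read 6.62, 6.44 and 6.55 without growth factors, 6.81, 7.35 and 7.48 with FGF2 and 5.81, 6.77 and 6.02 with BMP4. It was higher with FGF2 than -GFs by 0.68 (adjusted p = 0.0537) and than BMP4 by 1.01 ± 0.223 (2.02-fold, adjusted p = 0.00492), with no overlap in either. The first of these was lost in 5 alternatives, among them leaving out PA6 FGF2 replicate 3 (0.54, adjusted p = 0.187). The second lost its call in 6 of 15, with a difference of 0.53 to 1.30 and an adjusted p of at most 0.0308. CDC25A was lower with FGF2 than with BMP4 by 0.59 (adjusted p = 0.0134), and CDK2, CCNE2, CCNA2 and CDC25C passed in none of the PA6 comparisons.

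The mitotic genes build the spindle, hold and release the chromosomes and mark dividing cells. Between the culture types 11 of the 12 kept members were called higher in the co-cultures, with a median difference of 5.13 over the 12. BIRC5 (survivin) and the Aurora kinase AURKB belong to the chromosomal passenger complex. BIRC5 read 13.46, 13.50 and 13.58 in ES/PA6 against 6.32, 6.51 and 7.17 in PA6 (6.85 ± 0.293, adjusted p = 7.88e-12). TOP2A, which untangles DNA, and AURKA, the spindle pole kinase, were detected on 0 of 3 mono-culture arrays and lay at least 73.9-fold and 66.5-fold above that in the co-cultures. KIF20A, a kinesin of cytokinesis, was the exception, at 6.43, 6.94 and 6.67 against 6.20, 7.38 and 6.90 (-0.14, 95% interval -0.82 to 0.54).

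With FGF2 in PA6 7 of the 12 mitotic genes rose and 0 fell, with a median of 0.95 over the 12, against -0.01 over all genes. CDC20, the activator of the anaphase-promoting complex, was tight on its control arrays, at 8.51, 8.50 and 8.55 without growth factors and 9.54, 10.58 and 9.56 with FGF2. With BMP4 it read 9.30, 9.52 and 9.14. Neither factor's arrays overlapped the controls, and its rise was 1.37 ± 0.203 with FGF2 (2.59-fold, adjusted p = 0.000194) and 0.80 with BMP4 (adjusted p = 0.0499). All 4 of its probes were higher with FGF2, by 1.37 to 1.81.

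BIRC5 read 8.05, 9.34 and 8.40 with FGF2 and 7.80, 7.55 and 6.83 with BMP4. Its FGF2 arrays lay above all controls, with a rise of 1.93 ± 0.293 (3.82-fold, adjusted p = 0.000256), and its other probes gave 2.36 and 1.91. With BMP4 the arrays overlapped the controls (0.73, adjusted p = 0.277), and FGF2 exceeded BMP4 by 1.20 (adjusted p = 0.0101). AURKA went from 5.52, 5.55 and 6.16, undetected, to 7.0, 7.89 and 7.0 with FGF2 and 6.66, 6.95 and 6.71 with BMP4. It was called with both factors, FGF2 raising it at least 2-fold (1.55 ± 0.218, adjusted p = 0.000119) and BMP4 at least 1.39-fold (1.03 ± 0.218, adjusted p = 0.0181).

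PLK1, a kinase of mitotic entry, read 7.03, 7.25 and 6.63 without growth factors, 7.72, 9.02 and 8.06 with FGF2 and 7.21, 7.54 and 6.59 with BMP4. FGF2 raised it by 1.30 ± 0.292 (2.46-fold, adjusted p = 0.00617) with no overlap. The BMP4 arrays overlapped the controls (0.15, adjusted p = 0.942), and FGF2 exceeded BMP4 by 1.15 (adjusted p = 0.0129). AURKB rose from 6.28, 5.91 and 5.91, undetected, to 7.12, 7.70 and 6.60 with FGF2, at least 1.79-fold (1.11 ± 0.229, adjusted p = 0.00332). With BMP4 it read 6.87, 7.14 and 6.42 (0.78, adjusted p = 0.0975). TOP2A read 5.86, 5.80 and 5.40 without growth factors, 6.81, 7.37 and 6.22 with FGF2 and 6.98, 7.15 and 6.07 with BMP4. It was called with both, at least 1.41-fold (1.11 ± 0.283, adjusted p = 0.0134) and 1.35-fold (1.04 ± 0.283, adjusted p = 0.0681), and replicate 3 of each factor was not detected. Its other probes gave 0.06 and 0.38 with FGF2 and -0.13 and -0.11 with BMP4. With the mean of its probes TOP2A was called with neither factor. That mean gave 0.51 with FGF2 (adjusted p = 0.0493) and 0.27 with BMP4 (adjusted p = 0.591). Of 15 alternatives 4 lost the FGF2 call and 8 the BMP4 call.

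Among the remaining mitotic genes CENPA, the centromere histone, rose with FGF2 by 0.79 (adjusted p = 0.0101), from 9.49, 9.73 and 9.81 to 10.13, 10.99 and 10.29. BUB1B, a spindle checkpoint kinase, rose with BMP4 by 0.64 (adjusted p = 0.0705), from 9.91, 9.75 and 9.79 to 10.34, 10.48 and 10.56. With FGF2 BUB1B read 9.98, 9.73 and 9.78, lower than with BMP4 by 0.63 (adjusted p = 0.0221). KIF20A was higher with FGF2 than with BMP4 by 0.91 (adjusted p = 0.0682), with overlap. MKI67, the gene of the proliferation antigen Ki-67, and KIF11 were detected on PA6 FGF2 replicate 2 alone among the 9 mono-culture arrays, and with MAD2L1 they passed in none of the PA6 comparisons.

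**Figure D3:**
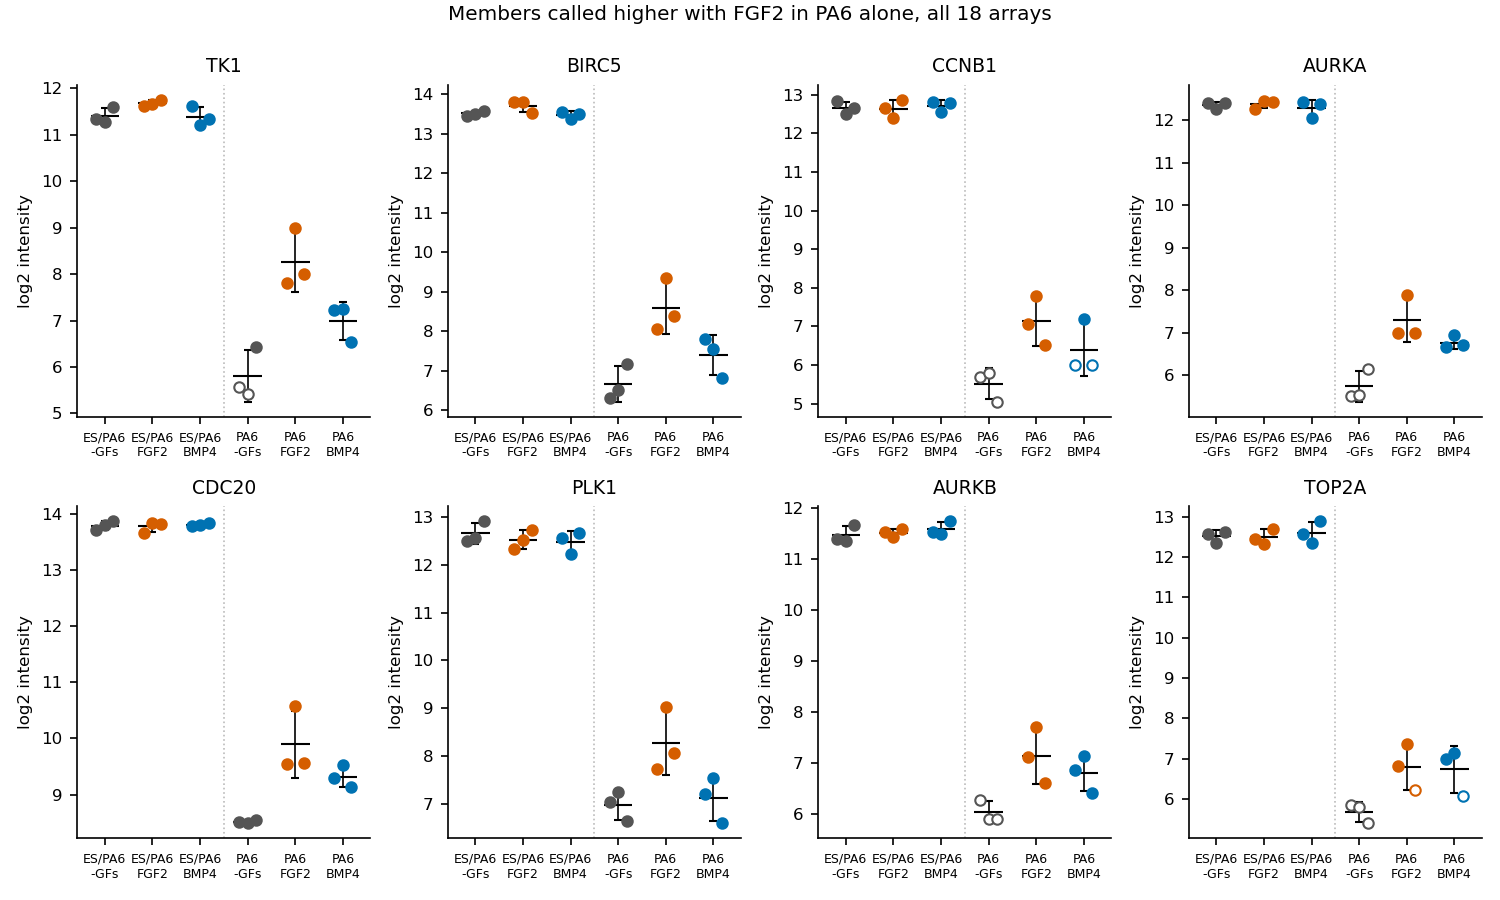
Log2 intensity of the 8 members called higher with FGF2 in PA6 mono-cultures on all 18 arrays, with mean and SD (n = 3 per group); open points were not detected on that array. In PA6 the FGF2 arrays lie above the controls in all 8 panels, with replicate 2 highest, and the 9 co-culture arrays of each gene lie far above both.

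PA6 FGF2 replicate 2 was the highest of the 3 FGF2 arrays for all 8 called members. Without it 5 stayed called (TK1, BIRC5, CCNB1, AURKA and CDC20), and PLK1, AURKB and TOP2A stood at 0.92, 0.83 and 0.83 with adjusted p of 0.0328, 0.0186 and 0.084. Of the 7 calls between FGF2 and BMP4 only MCM3 stayed without that array, and 4 stayed without PA6 BMP4 replicate 3. The 3 BMP4 calls fell to 0 without PA6 -GFs replicate 1, PA6 -GFs replicate 2 or PA6 BMP4 replicate 2, and to 1 without PA6 BMP4 replicate 1. The 8 BMP4 rises by the adjusted p fell to 1 without PA6 -GFs replicate 1 or 2 or PA6 BMP4 replicate 1 or 2. They fell to 2 without PA6 -GFs replicate 3, to 6 without PA6 BMP4 replicate 3 and to 3 in a fit of the PA6 arrays alone. Quantile normalization without background correction, which shrinks the differences of dim probes, left 3 calls with FGF2 (TK1, BIRC5 and CDC20), 0 with BMP4 and 1 between the factors.

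Markers of other cells were set beside these rises. The summed level of the ES markers in the mono-cultures was 8.39 to 8.66 without growth factors, 8.36 to 8.63 with FGF2 and 8.53 to 8.76 with BMP4, with 0 of 7 called in either. POU5F1 was detected on 3 of 3 arrays of each mono-culture group, at means of 6.86, 6.95 and 7.18 in the same order. NANOG was detected on 1 of 3 BMP4 arrays and ZFP42 on 1 of 3 FGF2 arrays, and SOX2, ESRRB, UTF1 and TDGF1 on 0 of either. The stromal sum was 16.55 to 16.68, 16.31 to 16.53 and 16.34 to 16.45 in the same order, with 2 of 8 markers called with FGF2 and 1 with BMP4. The sum of 3 adipocyte markers moved most, at 12.98 to 13.47 without growth factors, 7.96 to 8.73 with FGF2 and 14.47 to 15.67 with BMP4, with 3 of 3 called with FGF2. Its part in the members' rises was not tested.

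In the co-cultures none of the mitotic or S phase members passed with either factor, with or without the replicate block. GINS2 came nearest with FGF2, lower than -GFs within all 3 replicate numbers (-0.41, -0.24 and -0.55), with an adjusted p of 0.145 and of 0.121 with the block. CDC20 ranged from 13.66 to 13.86 over the 9 arrays, AURKA from 12.04 to 12.44, BIRC5 from 13.38 to 13.80 and TK1 from 11.21 to 11.76. The largest difference of a mitotic gene from -GFs was that of KIF20A with BMP4 (-0.58) and did not pass. The test of the difference between the culture types gave 9 members whose FGF2 effect was called lower in ES/PA6 than in PA6 and 0 higher. Over all genes 7.39% were called in this test, 3.4% lower and 3.99% higher. The largest were TK1 (-2.18 ± 0.421, adjusted p = 0.00356), BIRC5 (-1.74 ± 0.415, adjusted p = 0.0138), CCNB1 (-1.66 ± 0.458, adjusted p = 0.0306), AURKA (-1.53 ± 0.308, adjusted p = 0.00469) and PLK1 (-1.43 ± 0.413, adjusted p = 0.0379). Even with FGF2 these genes were far lower in PA6 than in ES/PA6 without growth factors (BIRC5 8.60 against 13.51, CCNB1 7.14 against 12.66). A stromal rise to such levels would move a co-culture array little, so the test cannot show whether stroma responded in co-culture. For BMP4 the same test called 0 members beside 0.559% of all genes, with 8 at an unadjusted p under 0.05 in the limma fit.

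**Figure D4:**
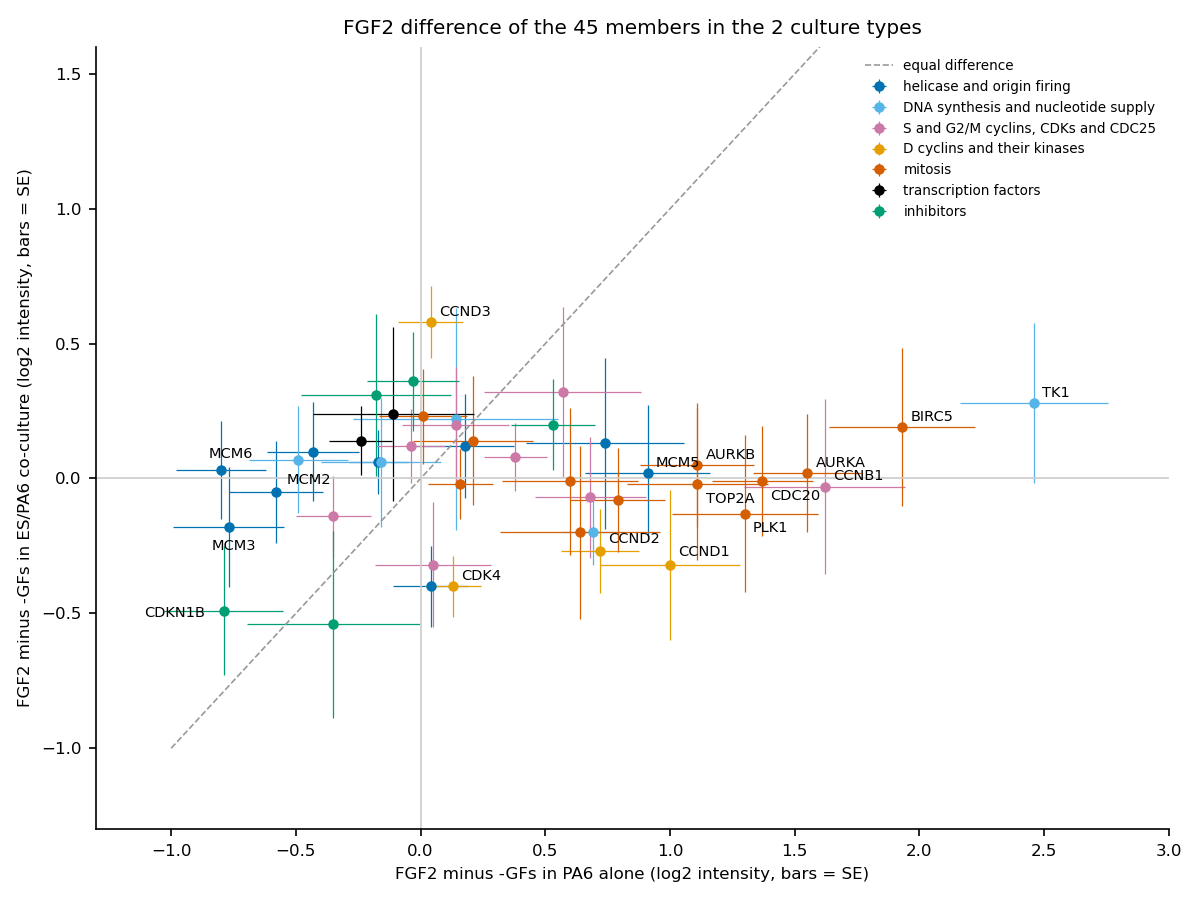
FGF2 minus -GFs of each member in PA6 mono-cultures (x axis) and in ES/PA6 co-cultures (y axis), in log2 intensity with SE bars (3 arrays per group), coloured by role; the dashed line marks equal differences. The mitotic genes and TK1 spread to the right at heights near 0, and the x axis runs from CDKN1B, MCM3 and MCM6 on the left to TK1 at 2.46.

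The D cyclins couple growth factor signals to the cycle, and together with CDK4 they differed less between the culture types than any group above. CCND1 read 14.11, 14.52 and 14.43 in ES/PA6 against 12.49, 12.29 and 12.92 in PA6 without growth factors, a called difference of 1.79 ± 0.279 (adjusted p = 2.92e-05). CCND2 read 13.21, 13.64 and 13.24 against 13.75, 13.36 and 13.24, with overlap (-0.09, 95% interval -0.42 to 0.25). CCND3 read 12.69, 12.58 and 12.97 against 12.57, 12.56 and 12.59, also with overlap (0.17, 95% interval -0.11 to 0.45). CDK4, their kinase, read 13.26, 13.48 and 13.44 against 13.08, 13.11 and 13.13 and was higher in the co-cultures by 0.28 (adjusted p = 0.0384).

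With FGF2 different D cyclins passed in the 2 culture types. In PA6 CCND1 rose to 13.11, 14.17 and 13.41, above all controls, by 1.0 ± 0.279 (adjusted p = 0.0235), just short of the fold threshold. Without PA6 FGF2 replicate 2 it stood at 0.69 (adjusted p = 0.137), and without PA6 -GFs replicate 2 at 0.86 (adjusted p = 0.104). CCND2 rose in PA6 to 14.13, 14.36 and 14.01, above all controls, by 0.72 ± 0.156 (adjusted p = 0.0048). CCND3 stayed at 12.53, 12.60 and 12.73 in PA6 (0.04, adjusted p = 0.906). With BMP4 in PA6 CCND1 read 12.58, 11.86 and 12.92, CCND2 13.75, 13.79 and 13.64, CCND3 12.63, 12.79 and 12.70 and CDK4 12.86, 13.05 and 12.86, and none of them passed against -GFs. CCND1 was called higher with FGF2 than with BMP4, by 1.11 ± 0.279 (2.16-fold, adjusted p = 0.0122), and CCND2 and CDK4 were higher by 0.44 and 0.31 (adjusted p = 0.0689 and 0.0794).

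In the co-cultures CCND3 was the member that rose with FGF2, to 13.32, 13.13 and 13.51, above all controls (0.58 ± 0.132, 1.49-fold, adjusted p = 0.0136). All 3 of its kept probes were higher, by 0.49 to 0.70. In a fit of the co-culture arrays alone its adjusted p was 0.107. With BMP4 it read 13.11, 12.81 and 13.08 (0.25, adjusted p = 0.528), lower than with FGF2 by a difference (0.32, adjusted p = 0.206) that passed with the replicate block (adjusted p = 0.0546). CDK4 fell with FGF2 to 12.86, 13.15 and 12.96, below all controls (-0.40 ± 0.114, adjusted p = 0.0465), a change that 7 alternatives took past the threshold, and it read 13.16, 13.28 and 13.21 with BMP4. CCND2 read 13.12, 13.18 and 12.98 with FGF2 and 13.87, 13.83 and 13.57 with BMP4, lower with FGF2 than with BMP4 by 0.67 ± 0.156 (adjusted p = 0.02). CCND1 read 14.08, 14.23 and 13.80 with FGF2 and 14.32, 14.73 and 14.41 with BMP4 and passed in none of the co-culture comparisons. In the test of the FGF2 effect between culture types all 4 genes passed: CCND1 (-1.31 ± 0.395, adjusted p = 0.0453), CCND2 (-0.99, adjusted p = 0.00907) and CDK4 (-0.53, adjusted p = 0.0484) had the lower effect in ES/PA6, and CCND3 (0.53, adjusted p = 0.0839) the higher one. In the co-cultures the ES marker sum moved beside these values, at 14.65 to 15.31 without growth factors, 15.77 to 16.01 with FGF2 and 15.23 to 15.64 with BMP4, while the stromal sum was 15.63 to 15.87, 15.12 to 15.53 and 14.94 to 15.55. The ES markers did not move together: with FGF2 ESRRB, NANOG and ZFP42 were called higher and UTF1 fell (-0.73, adjusted p = 0.00509). POU5F1 (-0.10), SOX2 and TDGF1 did not pass with FGF2, and no ES marker passed with BMP4. The adipocyte sum moved further, at 8.46 to 11.47, 7.18 to 8.66 and 11.98 to 14.58, with 1 of its 3 markers called with FGF2, 2 with BMP4 and 3 between the factors. The endothelial sum was 9.62 to 10.40, 10.53 to 11.08 and 10.62 to 11.24. Of its 5 tested markers only PECAM1 passed against -GFs (0.98 with FGF2, adjusted p = 0.0755, and 1.17 with BMP4, adjusted p = 0.0994). The neural sum was 8.32 to 11.24, 7.85 to 10.78 and 7.52 to 8.43. The part of these cells in the result was not tested.

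The inhibitors were the group that most divided the culture types in direction. CDKN1C (p57), an imprinted CIP/KIP inhibitor, read 11.80, 12.45 and 12.71 in ES/PA6 against 5.63, 5.91 and 5.44, undetected, in PA6. It was at least 65-fold higher in the co-cultures (adjusted p = 8.87e-11), among the largest differences of any member. CDKN1B (p27), which holds resting cells out of the cycle, lay the other way, at 6.51, 6.33 and 6.05 in ES/PA6 against 8.92, 8.78 and 8.98 in PA6, 6.05-fold lower (-2.60 ± 0.24, adjusted p = 8.45e-08). The other kept CDKN1B probe, detected on 4 arrays, gave -1.05. The INK4 inhibitor CDKN2A, whose locus encodes p16 and ARF, read 9.66, 9.42 and 10.02 against 10.45, 10.72 and 11.26 (-1.11 ± 0.301, adjusted p = 0.00384). This difference depends on the probe: the other kept CDKN2A probes gave -1.81 and -0.08. CDKN2B (p15) read 11.02, 11.48 and 11.86 against 12.12, 12.46 and 12.38 and was lower by 0.87 (adjusted p = 0.00052). CDKN1A (p21) did not pass, at 12.65, 12.73 and 12.99 against 12.75, 12.90 and 12.89 (-0.05, 95% interval -0.41 to 0.30). The CDKN2A call was lost without ES/PA6 -GFs replicate 2 (-0.97) or PA6 -GFs replicate 3 (-0.89). The CDKN2A and CDKN2B differences lie within the range of the single stromal markers (-0.18 to -2.04). The part of the stromal share in them was not tested.

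With FGF2 in PA6 p27 and p21 moved in opposite directions. CDKN1B fell to 8.08, 7.61 and 8.61, below all controls (-0.79 ± 0.24, 1.73-fold lower, adjusted p = 0.0355), and read 9.33, 8.97 and 9.26 with BMP4. It was called 2.13-fold lower with FGF2 than with BMP4 (-1.09 ± 0.24, adjusted p = 0.00499), with no overlap. The other kept probe of CDKN1B was dimmer and gave -0.31 with FGF2 against -GFs and -0.45 between the factors. CDKN1A rose with FGF2 to 13.28, 13.70 and 13.14, above all controls (0.53 ± 0.169, adjusted p = 0.0482), and its other probes gave 0.41 and 0.68. With BMP4 CDKN1A read 12.43, 13.07 and 12.55, lower than with FGF2 by 0.69 (adjusted p = 0.0105). Without PA6 FGF2 replicate 2 neither passed against -GFs (CDKN1B -0.55, adjusted p = 0.189, and CDKN1A 0.36, adjusted p = 0.236). CDKN1C stayed undetected on all 9 mono-culture arrays. CDKN2A read 10.30, 10.17 and 11.42 with FGF2 and 9.88, 10.45 and 10.24 with BMP4, and CDKN2B 12.43, 12.21 and 12.25 and 11.89, 12.14 and 12.08, and neither passed.

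In the co-cultures none of the 5 inhibitors passed with either factor. CDKN1C read 10.87, 12.11 and 12.36 with FGF2 and 11.65, 12.33 and 12.48 with BMP4, the first array lowest in each group, and CDKN1B read 5.29, 6.12 and 6.01 and 5.82, 6.13 and 6.21. CDKN1A read 13.00, 13.04 and 12.93 with FGF2 and 12.81, 13.01 and 12.88 with BMP4. CDKN2A read 10.40, 9.65 and 9.97 and 9.38, 9.61 and 9.25, and CDKN2B 11.97, 11.91 and 11.56 and 11.71, 11.91 and 11.59. The differences from -GFs ran from -0.54 (CDKN1C, FGF2) to 0.36 (CDKN2B, FGF2).

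**Figure D5:**
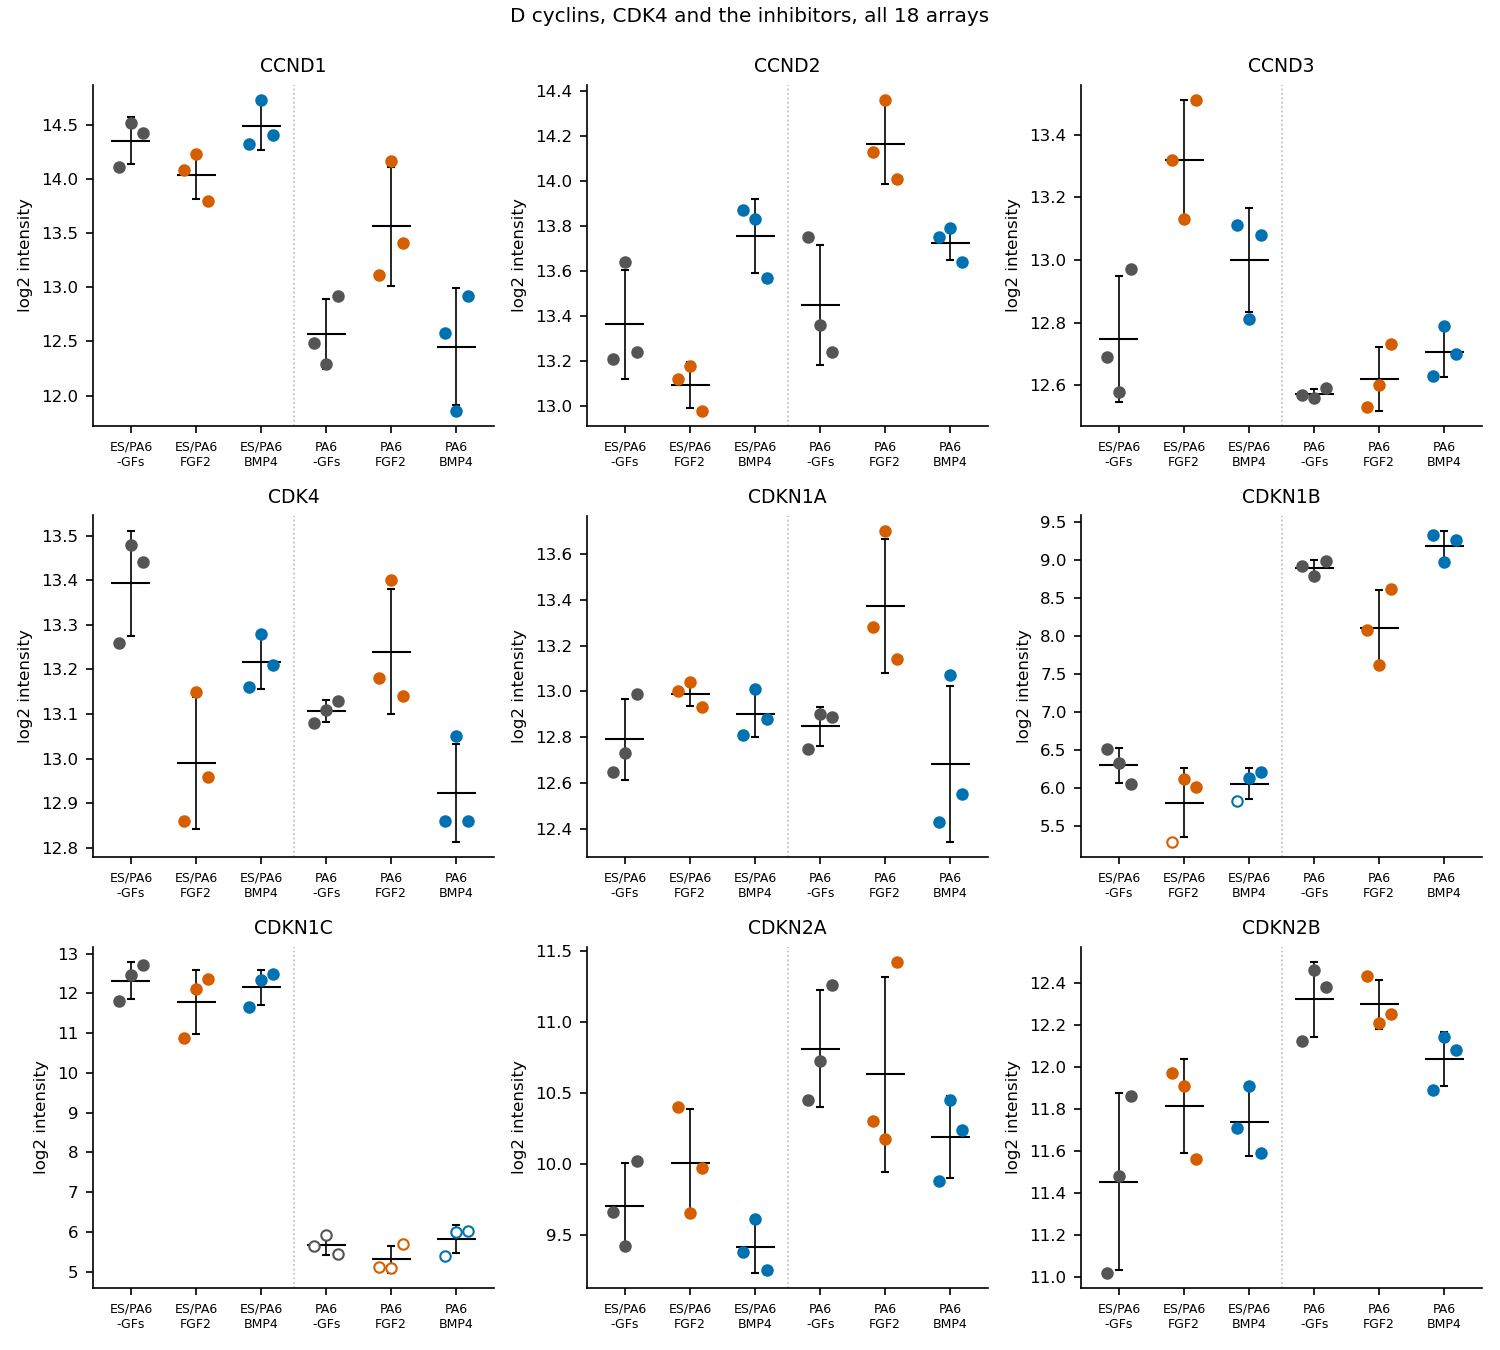
Log2 intensity of the 4 kept genes of the D cyclin step and the 5 inhibitors on all 18 arrays, with mean and SD (n = 3 per group); open points were not detected, and each panel has its own scale. CDKN1C and CDKN1B divide the culture types in opposite directions, and CCND1, CCND2 and CDKN1A are highest among the PA6 groups on the FGF2 arrays.

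The transcription factors of the list were E2F1, which drives replication genes, and MYC, a growth regulator that mitogens induce. E2F1 read from 11.34 to 11.77 over the 9 ES/PA6 arrays and from 11.10 to 11.55 over the 9 mono-culture arrays (0.10 between the culture types, 95% interval -0.17 to 0.37). MYC read 6.59, 6.52 and 5.42 in ES/PA6 against 7.45, 7.56 and 7.37 in PA6 without growth factors, a called difference of -1.29 ± 0.323 (adjusted p = 0.0022). It was lost as a call without ES/PA6 -GFs replicate 3 (-0.91) and without background correction (-0.71). The MYC difference also lies within the range of the single stromal markers, and the part of the stromal share was not tested. Neither gene passed with FGF2 or BMP4 in either culture type.

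A further list of 95 genes of the same pathways that are not members had 82 tested genes. With FGF2 in PA6 9 of them were called, 8 higher and 1 lower, and 17 rose and 5 fell by the adjusted p, beside 5.27% and 18.7% of all genes. The largest were KIF23, a kinesin of cytokinesis (at least 2.89-fold higher, adjusted p = 3.42e-06), GADD45A, a stress-response gene (2.25 ± 0.286, adjusted p = 4.71e-05), PBK, a mitotic kinase (at least 2.28-fold, adjusted p = 0.000193), and CDCA3 (1.74 ± 0.225, adjusted p = 5.54e-05). Of the 28 tested mitotic genes of that list 11 rose and 0 fell, with a median of 0.57, and of the 29 tested S phase genes 2 rose and 2 fell, with a median of -0.06. With BMP4 in PA6 2 were called, beside 1.41% of all genes, KIF4 (1.24 ± 0.227, adjusted p = 0.00793) and KIF23 (at least 1.18-fold, adjusted p = 0.0181). In the co-cultures FGF2 gave 2 calls, a share of the 82 no larger than the 3.34% of all genes: the separase inhibitor PTTG1 (1.10 ± 0.324, adjusted p = 0.0567) and MYBL2, which encodes B-MYB (1.0 ± 0.211, adjusted p = 0.00819), and BMP4 gave 0 beside 0.76%, with 9 at an unadjusted p under 0.05 in the limma fit. Between the culture types without growth factors 69 of the 82 were called, beside 39% of all genes, 63 of them higher in the co-cultures.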

How the data were processed

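RNA of the 18 cultures was hybridised to Illumina MouseWG-6 v2.0 bead arrays. The table used here holds, per the file headers, the intensity of each of 45281 probes on each array, not normalized, and the detection p-value that the authors' scanner software gave. The submitters' processing notes name GenomeStudio 2011.01. The study's own cubic spline normalization is not in these values. Columns were matched to samples by name, 5 stray lines were left out and 0 columns of other samples were found. Intensities were background-corrected, quantile-normalized and put on a log2 scale with neqc of limma 3.58.1 (R 4.3.3, offset 16). A probe was kept where its detection p lay below 0.05 on 3 or more arrays, and the probe with the largest mean stood for each gene, of which 4561 had several.

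One limma model of the 6 group means gave all comparisons, with Benjamini-Hochberg adjustment over 16446 genes. Called means an adjusted p under 0.1 and a log2 difference over 1, the thresholds of the study. Every kept member was accounted for by role, with array values for called members (up to the 5 largest rises and falls a comparison) and for all D cyclins and inhibitors. Other members with values were chosen after these were seen, mostly for passing the adjusted p, and at most 4 called genes a comparison were named from the further list. The members and lists were chosen with earlier results of these data known. For a gene undetected on all arrays of a group, "at least" folds set the brighter group against the lowest detected signal. The limma fit was tested on simulated data with independent noise, which did not cover background correction, the probe filter or the probe rule.

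The number of arrays limits the precision: 3 against 3 in an exact permutation test cannot go below p = 0.1. The labels do not say that replicates came from separate cultures, so p-values measure the spread between these samples, which may be technical. Alternatives were another normalization, probe filter, probe rule, variance model, subset of arrays, replicate block and leaving out each array. Same-numbered arrays deviated together in the 9 ES/PA6 pairs (correlations 0.325 to 0.521) and less in the 9 PA6 pairs (0.0628 to 0.164). All ES/PA6 pairs thus exceeded 0.1 and not all PA6 pairs did, and the labels tie no number to a day or batch.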

Additional observations from a re-analysis of the deposited data

Results flagged for a closer look

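For 9 members the FGF2 effect differed between the culture types by the test of the difference itself (limma, adjusted p under 0.1 and a difference over 1), each with the lower effect in the ES/PA6 co-cultures. The differences of the log2 effects were -2.18 for TK1, -1.74 for BIRC5, -1.66 for CCNB1, -1.53 for AURKA, -1.43 for PLK1, -1.38 for CDC20, -1.31 for CCND1, -1.13 for TOP2A and -1.06 for AURKB. Except for CCND1, these genes lay far higher in the co-cultures than in PA6 with FGF2. A stromal rise would show little there, and the stromal response in co-culture was not tested. TK1, BIRC5, CDC20 and PLK1 kept the call in all 20 alternatives, AURKA lost it in 1, CCNB1 and CCND1 in 2 each, AURKB in 6 and TOP2A in 14, where its difference came down to -0.57 and its adjusted p rose to 0.213. The adjusted p as reported ran from 0.00356 for TK1 to 0.0883 for TOP2A. No group held 4 or more arrays, so single arrays were not tested as outliers.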

How the results depend on the processing

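With no fold threshold the members called were 2 with FGF2 and 1 between the factors in ES/PA6, 20 with FGF2, 8 with BMP4 and 17 between the factors in PA6, and 15 in the test of the FGF2 effect between culture types. Quantile normalization without background correction gave 3, 0 and 1 in the PA6 comparisons and 5 in that test. The mean over kept probes gave 1 with BMP4 and 4 between the factors in PA6, and a fit of the PA6 arrays alone gave 1 with BMP4. A fit with a replicate block, set inside either culture type, changed 1 count: 1 member was called for the BMP4 effect between culture types, and the other counts stayed within 1.5 times (8 with FGF2, 3 with BMP4 and 7 between the factors in PA6, 37 between the culture types). No member that had passed the adjusted p lost it with the block, and others gained it. With FGF2 in PA6 MCM7, RRM1, CDC25A and MKI67 did, and 24 then passed, 17 higher and 7 lower. CCNB1 (0.0104) and CENPA (0.0788) gained it with BMP4 in PA6, and CCNB1 and CDKN1C between the factors there. In the tests between culture types MCM5, MCM7 and E2F1 gained it for FGF2, and AURKA and TOP2A for BMP4. Leaving out 1 array at a time gave 5 to 12 calls with FGF2, 0 to 4 with BMP4 and 1 to 8 between the factors in PA6, 36 to 37 between the culture types, 6 to 11 for the FGF2 effect between culture types, and 0 to 0 in the co-culture comparisons and for the BMP4 effect. Of 562 values of named members under alternatives, 480 kept their call, 82 lost it and 0 reversed. The cause of these shifts was not tested. The slide as a block was not run, since the table names no slide. Signal near background limits CCNB1, AURKA, AURKB and TOP2A in PA6, detected on 0 of 3 arrays without growth factors, and TK1, detected on 1.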
